A study of Mus musculus with 16 samples.

Results

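Liver transcripts of 10 lipid droplet genes were described across 4 groups of mice. The genes were the perilipins Plin2, Plin3, Plin4 and Plin5, the CIDE genes Cidea, Cideb and Cidec, the lipase inhibitor G0s2, and the fat storage-inducing membrane protein genes Fitm1 and Fitm2. They were taken by symbol from a count table of 23420 genes, and all 10 were found. Wild-type male C57BL/6J mice, whose age is not given in the sources used here, received a high-fat diet with 45% of its energy as fat. In the FEN-HFD groups this diet also held 0.04% fenretinide, a synthetic retinoid, and in the HFD groups it did not. The groups were FEN-HFD for 20 weeks (mice 21, 22, 24 and 29), HFD for 20 weeks (mice 25, 28, 33 and 45), FEN-HFD for 7 days (mice 61, 62, 65 and 66) and HFD for 7 days (mice 142, 143, 144 and 146). Each of the 16 libraries came from the liver of a separate mouse. Mice of the 20-week and 7-day groups were different animals, and duration cannot be told apart from age or cohort. Lean livers were not analysed here.

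A lipid droplet is a core of triglyceride and sterol esters under a phospholipid monolayer, to which coat proteins bind. Perilipins cover the droplet and limit the access of lipases, and in hepatocytes Plin2 is the main coat protein of stored fat. The CIDE proteins sit where droplets touch and pass lipid from the smaller to the larger one, whereas Cideb in hepatocytes is also known for loading lipid onto very low density lipoprotein. G0s2 inhibits adipose triglyceride lipase (encoded by Pnpla2), and the Fitm proteins of the endoplasmic reticulum take part in droplet formation. Plin4, Cidec and Cidea are abundant in adipocytes, Plin5 in oxidative tissues and Fitm1 in skeletal muscle, so that the cell types in each sample bear on these values.

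Counts assigned to genes totalled between 19218230 and 32546829 per library. The unit of level is CPM, a gene's counts per 1000000 counts of its library after scaling by TMM factors across all 16 libraries. Cyp26a1, which encodes a retinoic acid hydroxylase and responds to retinoids, was at 287 to 318 CPM in the FEN-HFD mice and 3.81 to 5.02 CPM in the HFD mice at 20 weeks, and at 213 to 272 CPM and 1.10 to 8.68 CPM at 7 days, so that every library stood with its labelled diet. The hepatocyte markers Alb, Ttr and Apob were high in all 16 libraries. FEN-HFD mouse 29 stood apart, with 53.1% of its counts on the ribosomal RNA precursor Rn45s and 4.36% on Lars2, whereas Rn45s took 0.466% to 1.46% and Lars2 0.00173% to 0.0499% of the other libraries. HFD mouse 45 of the 20-week group held skeletal muscle transcripts, such as Acta1 at 274 CPM and Ckm at 222 CPM, and the 8 muscle markers summed to 1311 CPM there and to at most 4.12 CPM elsewhere. It also held traces of fat tissue, with Adipoq at 3.19 CPM and Plin1, the perilipin of adipocytes, at 2.47 CPM. In the other 15 libraries Adipoq reached at most 0.121 CPM and Plin1 at most 0.0620 CPM. The diet comparison of the members at 20 weeks is therefore also given without these mice. Listed genes and cell markers were tested with all mice only. In bulk liver, fewer cells of a type and less RNA per cell cannot be told apart.

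In the mm10 annotation (GENCODE M21), Plin4 (chr17:56100591-56109803), Plin5 (chr17:56111601-56117596) and Plin3 (chr17:56277476-56292873) lie on the minus strand of chromosome 17, with 1797 bases between Plin4 and Plin5 and 159879 bases between Plin5 and Plin3. Plin2 (chr4:86648386-86670060), Cidec (chr6:113424634-113435760), Cideb (chr14:55754050-55758458), G0s2 (chr1:193272161-193273217) and Fitm2 (chr2:163466379-163472629) are also on the minus strand, and Fitm1 (chr14:55575617-55576954) is on the plus strand. Several members overlap a gene of the opposite strand, and the strand setting used for counting is not given in the sources used here. Cideb shares 860 exonic bases with Nop9, so that reads of these genes may not be separated. The exons of Fitm2 share 227 bases with the antisense gene 2310001K24Rik, those of Fitm1 share 109 with the antisense gene Gm15932, and those of Plin4 share 8 with Hdgfl2. G0s2 lies within the bounds of Lamb3 and Cidea overlaps B430212C06Rik, in both cases with 0 shared exonic bases.

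The sequences before the start sites of Plin2, Plin4, Plin5 and Cidec are shown, and Cidea was left out of the motif search. They come from RefSeq (GRCm38.p6, the mm10 assembly), read 5′ to 3′ on the strand of the gene from 250 bases before the start to 10 bases after it. Capitals mark the hexamer AGGTCA bound by nuclear receptors such as PPAR and RAR (or its reverse complement), the E-box CACGTG and the TATA-like pentamer TATAA.
Plin2 (chr4:86670050-86670309, minus strand): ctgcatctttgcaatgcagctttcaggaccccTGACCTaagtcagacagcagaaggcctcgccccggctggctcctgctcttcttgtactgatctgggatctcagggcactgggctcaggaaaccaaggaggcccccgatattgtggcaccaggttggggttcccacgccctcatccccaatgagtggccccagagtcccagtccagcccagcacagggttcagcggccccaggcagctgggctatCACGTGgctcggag
Plin4 (chr17:56109773-56110032, minus strand): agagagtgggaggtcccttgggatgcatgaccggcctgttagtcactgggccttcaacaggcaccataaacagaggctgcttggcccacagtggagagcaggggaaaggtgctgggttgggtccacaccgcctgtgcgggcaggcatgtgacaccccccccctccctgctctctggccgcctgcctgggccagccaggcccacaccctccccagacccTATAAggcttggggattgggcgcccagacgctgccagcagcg
Plin5 (chr17:56117539-56117798, minus strand): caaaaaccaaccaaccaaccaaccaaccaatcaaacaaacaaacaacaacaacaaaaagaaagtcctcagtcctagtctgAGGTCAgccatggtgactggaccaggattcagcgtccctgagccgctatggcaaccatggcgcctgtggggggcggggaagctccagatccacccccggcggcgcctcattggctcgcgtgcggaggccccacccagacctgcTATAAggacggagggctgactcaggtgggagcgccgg
Cidec (chr6:113435751-113436010, minus strand): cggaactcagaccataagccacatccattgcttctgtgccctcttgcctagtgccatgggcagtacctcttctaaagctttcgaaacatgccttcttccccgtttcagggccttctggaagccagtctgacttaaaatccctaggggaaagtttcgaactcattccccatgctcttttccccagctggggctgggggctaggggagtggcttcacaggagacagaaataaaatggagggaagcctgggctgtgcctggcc
In windows that run from 250 bases before to 50 after each start, both strands were searched and matches could overlap. Plin2 held the hexamer at -218 to -213 and an E-box at -4 to 2, where -1 is the last base before the start and 1 the next. Plin4 held TATAA at -32 to -28, and Plin5 held it at -27 to -23 and the hexamer at -170 to -165, with another hexamer at 14 to 19 of its other listed start. Cideb held TATAA far upstream, at -172 to -168. None of these motifs was matched in either listed Cidec start, or in G0s2, Plin3, Fitm1 or Fitm2. Of all 32851 RefSeq windows of this length, 16.3% held the hexamer, 7.15% the E-box and 24.9% TATAA, so that these matches are common. Direct repeats, namely a pair of AGGNCA with 1 base between (0.381% of windows) and a pair of AGNTCA with 2 (0.107%) or 5 bases between (0.204%), were matched in none of the member windows searched. A match describes the letters only, and elements outside this window were not searched.

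**Figure D1:**
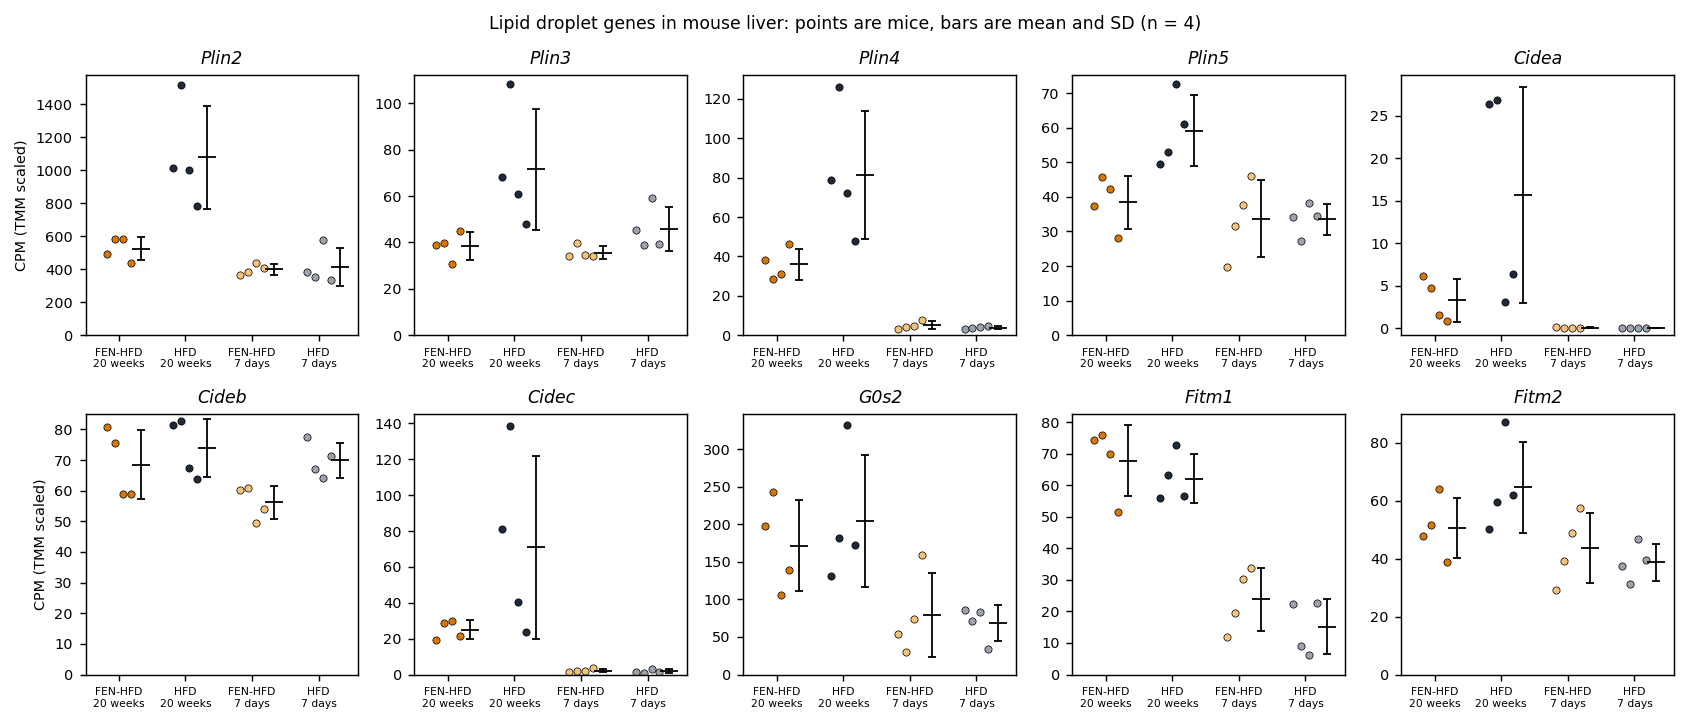
Level of each member gene in each mouse (y axis, TMM-scaled CPM on a linear scale) by group (x axis). Each point is 1 mouse, and the bar beside the points is the mean and SD of 4 mice. Plin4, Cidec and Cidea are near 0 in the 7-day groups and spread widely in the HFD group at 20 weeks, whereas Cideb stays between 49.4 and 82.6 CPM in all 16 mice.

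Levels of different genes were compared per kilobase of annotated exon. Plin2 was the main perilipin transcript in every mouse, with 86.3% to 91.3% of the summed perilipin CPM per kilobase. At 20 weeks that sum was 313 ± 39.0 CPM per kilobase in FEN-HFD mice and 633 ± 176 in HFD mice (SD, n = 4 each), and at 7 days it was 238 ± 20.9 and 248 ± 63.7. Plin3 held 2.44% to 4.63% of the pool in FEN-HFD mice and 2.82% to 3.38% in HFD mice at 20 weeks, against 3.65% to 4.74% and 4.75% to 5.38% at 7 days, so that its share was lower at 20 weeks on HFD without overlap. Plin4 held 1.44% to 3.01% of it in FEN-HFD mice and 1.79% to 2.48% in HFD mice at 20 weeks, against 0.272% to 0.554% and 0.204% to 0.411% at 7 days. The CIDE genes differed more. Cideb shares 860 of its 1212 exonic bases with Nop9, and reads of these genes may not be separated. The CIDE shares carry that limit. Cideb held 95.7% to 98.4% of the summed CIDE CPM per kilobase in FEN-HFD mice and 96.5% to 99.0% in HFD mice at 7 days. At 20 weeks its share was 72.3% to 80.1% in FEN-HFD mice and 39.8% to 73.2% in HFD mice, and the rest was Cidec and Cidea. Cidec alone took 13.2% to 25.5% in FEN-HFD mice and 18.8% to 46.1% in HFD mice at 20 weeks, so that the ranges of the diets overlapped. By mean CPM per kilobase in the HFD group at 20 weeks, Plin2 (571) and G0s2 (235) were highest, Fitm1 (63.9), Cideb (60.9) and Cidec (40.4) followed, and Plin4 and Cidea (14.1 each) were lowest.

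**Figure D2:**
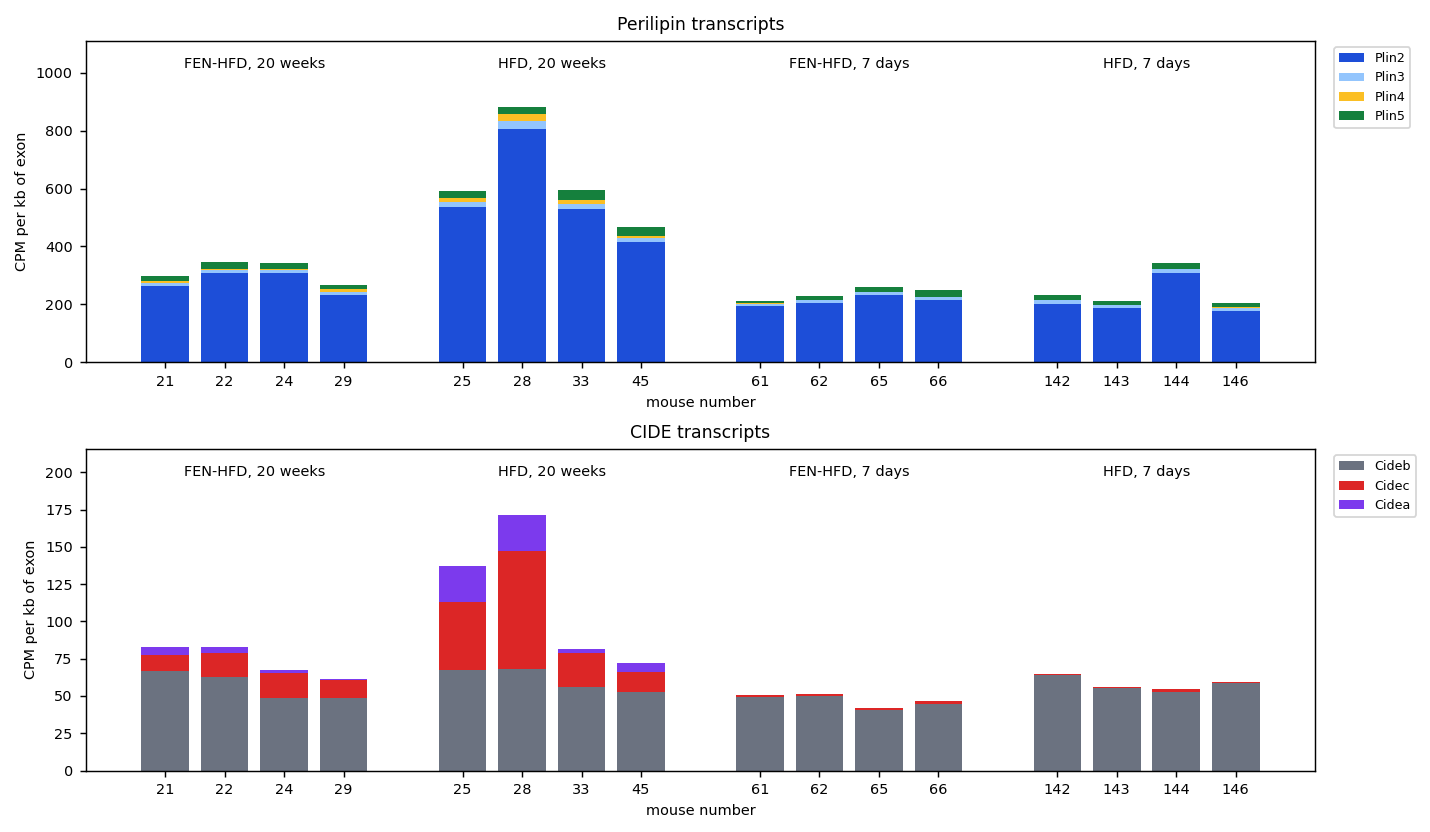
Stacked bars give the summed CPM per kilobase of exon (y axis, from 0) of the perilipins (top) and of the CIDE genes (bottom) in each mouse (x axis, mouse number), with a colour for each gene. Plin2 fills most of every perilipin bar, and Cidec and Cidea are visible almost only in the bars of the 20-week mice, with the tallest bar in HFD mouse 28.

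The comparison of FEN-HFD with HFD at 20 weeks asked whether fenretinide altered these transcripts in livers exposed to long-term high-fat feeding. All 4 perilipins were lower in every FEN-HFD mouse than in every HFD mouse, and of the 10 members tested, Plin2 alone passed edgeR's quasi-likelihood test across all genes. Over all 13010 genes tested, 1.09% were called lower and 0.769% higher, and 6.83% were lower and 6.00% higher with no overlap between groups. The median log2 fold change of the 10 members was -0.76, against 0.01 for all genes, and 9 of the 10 values were negative. At an unadjusted p under 0.05, 6 members were lower and 0 were higher, beside 10% of all genes lower (1307) and 8.50% higher.

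Plin2 was at 494, 581, 585 and 437 CPM in FEN-HFD mice, against 1011, 1518, 999.8 and 785 CPM in HFD mice. Mouse 28 was the highest on HFD, and the lowest HFD mouse, 45, was still above all FEN-HFD mice. The log2 fold change was -1.04 (SE 0.20, edgeR adjusted p = 0.0335), and mean levels were 524 ± 71.7 and 1078 ± 311 CPM (SD, n = 4 each). The call was lost when FEN-HFD mouse 21, 22 or 24 or HFD mouse 25 or 33 was left out, with edgeR adjusted p between 0.0620 and 0.125, and the log2 fold change over the 8 such fits was between -1.17 and -0.83. It was kept without the muscle-containing HFD mouse 45 (adjusted p = 0.0241), without the ribosomal RNA-rich FEN-HFD mouse 29 (0.0402) and without both (-1.09, adjusted p = 0.0136, edgeR).

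Plin4, a perilipin of adipocytes and muscle, was at 38.0, 28.7, 31.1 and 46.1 CPM in FEN-HFD mice, against 79.1, 126, 72.2 and 48.1 CPM in HFD mice. The groups did not overlap, but FEN-HFD mouse 29 and HFD mouse 45, which are the 2 libraries that stand apart, were 46.1 and 48.1 CPM and nearly met. The log2 fold change was -1.19 (SE 0.28, edgeR adjusted p = 0.0726), and it passed without HFD mouse 45 (-1.37, adjusted p = 0.0268) and without both mice (-1.51, adjusted p = 0.0186). Plin3, which is made in most tissues and moves between cytosol and young droplets, was at 38.7, 39.9, 30.7 and 44.7 CPM in FEN-HFD mice, against 68.4, 108, 61.0 and 48.1 CPM in HFD mice. The same 2 libraries again lay closest to the other group. Its log2 fold change was -0.90 (SE 0.24, edgeR adjusted p = 0.0924), and it too passed without mouse 45 (-1.05, adjusted p = 0.0438) and without both (-1.12, adjusted p = 0.0448). Plin5, which links droplets to mitochondria, was at 37.4, 45.8, 42.3 and 28.2 CPM in FEN-HFD mice, against 49.5, 53.1, 72.7 and 61.1 CPM in HFD mice. Here the highest HFD mouse was 33 rather than 28. The log2 fold change was -0.61 (SE 0.16, edgeR adjusted p = 0.0856), and no fit with a mouse left out called it.

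Cidec, the CIDE protein of large droplets, was at 19.2, 28.7, 30.1 and 21.6 CPM in FEN-HFD mice, against 80.9, 138, 40.4 and 23.7 CPM in HFD mice. The HFD mice spread over a wide range, and mouse 45 lay inside the FEN-HFD range. The log2 fold change was -1.51 (SE 0.50) and was not called (edgeR adjusted p = 0.164, with 0.274 without FEN-HFD mouse 29, 0.0564 without HFD mouse 45 and 0.146 without both). Cidea, known from brown fat and from fatty liver, was at 6.18, 4.70, 1.61 and 0.832 CPM in FEN-HFD mice, against 26.4, 26.9, 3.08 and 6.43 CPM in HFD mice. HFD mice 25 and 28 were several times above the other HFD mice, mouse 33 lay inside the FEN-HFD range, and mouse 45 was just above its top. Its log2 fold change of -2.15 was the most negative of the members but had the largest error (SE 0.81, edgeR adjusted p = 0.211). Cideb was at 80.6, 75.7, 58.8 and 58.9 CPM in FEN-HFD mice, against 81.3, 82.6, 67.5 and 63.9 CPM in HFD mice, with overlapping groups and a log2 fold change of -0.11 (SE 0.13, edgeR adjusted p = 0.716).

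G0s2 was between 106 and 243 CPM in FEN-HFD mice and between 132 and 331 CPM in HFD mice, with a log2 fold change of -0.25 (SE 0.33). Fitm1 was between 51.4 and 75.8 CPM in FEN-HFD mice and between 55.8 and 72.7 CPM in HFD mice, and its log2 fold change of 0.13 (SE 0.13) was the single positive value among the members. Fitm2 was between 39.0 and 64.1 CPM in FEN-HFD mice and between 50.3 and 87.1 CPM in HFD mice (log2 fold change -0.35, SE 0.19). The groups overlapped for all 3 genes and edgeR adjusted p was 0.727, 0.648 and 0.354 in the order given. With mouse 29, mouse 45 or both left out, edgeR adjusted p for Plin5, Cidea, Cideb, G0s2, Fitm1 and Fitm2 lay between 0.0748 and 0.894.

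The tools differed in how many members they called at 20 weeks. DESeq2 and limma-voom with quality weights each called the 4 perilipins lower, an edgeR fit of all 16 libraries called Plin2, Plin3 and Plin4, and edgeR with a fold threshold of 1.5 (glmTreat) called 0 members. Cidec and Cidea were called by none of these. All log2 fold changes of the 4 perilipins, Cidec and Cidea were negative under every tool and with every mouse left out.

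**Figure D3:**
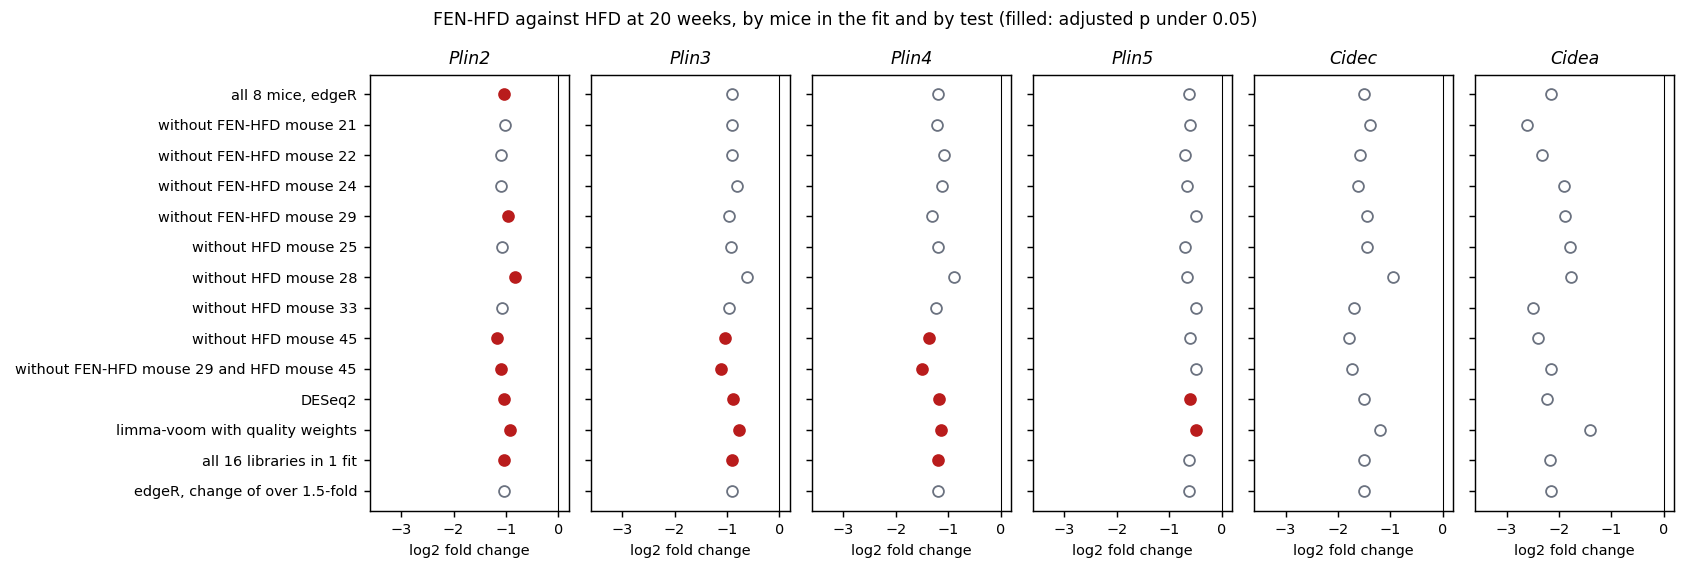
Log2 fold change of FEN-HFD against HFD at 20 weeks (x axis) for 6 members, under the mice in the fit and the test used (rows). Filled points have an adjusted p under 0.05 and open points do not. All points lie below 0, and Plin2 is open in the rows without FEN-HFD mouse 21, 22 or 24 and without HFD mouse 25 or 33.

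Several cell markers also differed between the 20-week groups, and their part in these results was not tested. The 8 hepatocyte markers summed to between 68023 and 77090 CPM in FEN-HFD mice and between 89806 and 101059 CPM in HFD mice, with 0 of the 8 called by edgeR (4 lower and 1 higher at an unadjusted p under 0.05). The 7 Kupffer cell markers summed to between 411 and 963 CPM in FEN-HFD mice and between 320.2 and 391 CPM in HFD mice, and Marco was called higher (log2 fold change 2.26, edgeR adjusted p = 0.0357). The 8 white adipocyte markers summed to between 96.3 and 202 CPM in FEN-HFD mice and between 44.3 and 69.96 CPM in HFD mice. That sum was carried by Cfd, which rose by 2.81 on the log2 scale (edgeR adjusted p = 0.0380), whereas Adipoq, Plin1, Lep and Retn were at or near 0 outside mouse 45. The 6 markers of lipid-associated macrophages (73.8 to 166 CPM against 70.5 to 232 CPM), the 8 of stellate cells (555 to 746 CPM against 552 to 704 CPM), the 5 of sinusoidal endothelium (223 to 295 CPM against 261 to 297 CPM) and the 5 of cholangiocytes (48.1 to 97.3 CPM against 47.3 to 158 CPM) overlapped between FEN-HFD and HFD mice. Of these, Lrat of stellate cells, which esterifies retinol, was called higher (log2 fold change 0.75, edgeR adjusted p = 0.0357). Spp1 stood in both the macrophage and cholangiocyte lists and carried the cholangiocyte sum (45.7 to 92.3 CPM against 42.7 to 152 CPM). Of the 5 cholangiocyte markers, 2 were lower and 0 higher at an unadjusted p under 0.05 by edgeR. Krt19 did not overlap (0.416 to 0.940 CPM against 0.982 to 2.38 CPM). Of the 6 macrophage markers, 1 was lower and 0 higher at that p. After adjustment 0 were called in either list. FEN-HFD mouse 29, rich in ribosomal RNA, had the highest sum of its group for every marker list summed above. The endothelial overlap rested on that mouse (295 CPM). Mice 21, 22 and 24 (258, 238 and 223 CPM) lay below the lowest HFD mouse, 33 (261 CPM). For the lipid-associated macrophage, stellate cell and cholangiocyte lists the overlap remained without mouse 29. Ucp1, which defines brown fat, reached at most 0.0314 CPM in any library. The 4 brown adipocyte markers, which include Cidea, summed to 21.9 to 85.0 CPM in FEN-HFD mice and 71.9 to 131 CPM in HFD mice. Mouse 29 had the lowest of these FEN-HFD sums. Elovl3 carried them, with 21.1 CPM as its lowest level in any library. Dio2 was at 0.525 CPM in mouse 45 and at most 0.0405 CPM in the other 15 libraries.

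Other genes of droplets and their control were read beside the members at 20 weeks. Over all genes, edgeR called 1.09% lower and 0.769% higher. Of 27 other droplet and droplet biogenesis genes tested, 5 were lower and 1 higher at an unadjusted p under 0.05 by edgeR. After adjustment Hsd17b13, a hepatocyte droplet enzyme, fell and none rose. It was at 204 ± 12.5 CPM in FEN-HFD mice and 490.2 ± 139 CPM in HFD mice (log2 fold change -1.26, edgeR adjusted p = 0.0124). None of 13 genes of lipolysis passed edgeR's test (2 lower and 1 higher at an unadjusted p under 0.05), including Pnpla2 (log2 fold change -0.04), its activator Abhd5 (-0.04) and its inhibitor Hilpda (-0.13). Of 27 listed PPAR alpha targets, 4 fell and none rose (19 and 0 at an unadjusted p under 0.05, which 10% of all genes passed as lower and 8.50% as higher), namely the acylcarnitine enzyme Crat (log2 fold change -1.26), the hormone Fgf21 (-3.25), the fatty acid transporter Cd36 (-1.35) and the acyl-CoA thioesterase Acot2 (-1.46). Of 8 listed PPAR gamma targets of fatty liver, Mogat1 (-1.65) and Cd36 fell and Cfd rose (also 2 lower and 1 higher at an unadjusted p under 0.05). Among 22 transcription factors, the retinoic acid receptor Rarb (1.15) and the carbohydrate-responsive factor Mlxipl (0.73) rose (2 lower and 6 higher at an unadjusted p under 0.05). Median log2 fold changes were -0.42 for the PPAR alpha list, -0.27 for the PPAR gamma list, -0.18 for lipolysis, -0.11 for the droplet list and 0.06 for the factors, against 0.01 for all genes.

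At 7 days, FEN-HFD was compared with HFD to ask whether the transcripts differed after a short exposure. None of the 9 members tested passed edgeR's test, by which 0.0988% of 13157 genes were called higher and 0% lower. DESeq2 and limma-voom also called 0 members. At an unadjusted p under 0.05, 2 members (Cideb and Plin3) were lower and 0 were higher, beside 2.45% of all genes lower and 2.63% higher. The median log2 fold change of the 9 members was 0.17, against -0.01 for all genes.

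Plin2 was at 365, 384, 438 and 408 CPM in FEN-HFD mice, against 382, 354, 579 and 336 CPM in HFD mice, a log2 fold change of -0.05 (SE 0.17). HFD mouse 144 was higher than the other 7 mice, which covered similar ranges. Plin3 was at 34.1, 39.7, 34.6 and 34.0 CPM in FEN-HFD mice, against 45.4, 38.9, 59.2 and 39.5 CPM in HFD mice, so that FEN-HFD mouse 62 overlapped the HFD mice (log2 fold change -0.36, SE 0.14, edgeR adjusted p = 0.842). Cideb was at 60.2, 61.0, 49.4 and 54.1 CPM in FEN-HFD mice, against 77.4, 67.0, 64.1 and 71.3 CPM in HFD mice. It was the single member whose 7-day groups did not overlap, a state in which 1.43% of genes were lower and 1.83% higher, and its log2 fold change of -0.31 (SE 0.10) was not called (edgeR adjusted p = 0.606). Plin4 (3.34 to 7.97 CPM against 3.04 to 4.90 CPM), Plin5 (19.7 to 45.9 CPM against 27.3 to 38.1 CPM), Cidec (1.23 to 3.48 CPM against 0.986 to 3.35 CPM), G0s2 (30.4 to 159 CPM against 34.4 to 85.3 CPM), Fitm1 (11.8 to 33.7 CPM against 6.32 to 22.8 CPM) and Fitm2 (29.3 to 57.4 CPM against 31.4 to 47.0 CPM) overlapped between FEN-HFD and HFD mice. Cidea had 5, 0, 2 and 1 counts in FEN-HFD mice and 2, 0, 0 and 1 counts in HFD mice and was too low to test. Among the listed genes, Rarb (log2 fold change 1.16, edgeR adjusted p = 0.00714) and Lrat (0.92, 0.00334) passed at 7 days, as did Cyp26a1 (5.54, 0.0320). None of the droplet, lipolysis or PPAR lists had a member called by edgeR, although 5 of 26 PPAR alpha targets were higher and 0 lower at an unadjusted p under 0.05 (2.63% and 2.45% of all genes), and Hsd17b13 had a log2 fold change of -0.45 (edgeR adjusted p = 0.604).

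Whether the effect of fenretinide differed between 20 weeks and 7 days was tested in a fit of all 16 libraries. None of the 10 members passed, in a test that called 0.0224% of 13387 genes lower and 0.00747% higher. The difference of log2 fold changes was -1.55 for Plin4 (SE 0.42) and -0.99 for Plin2 (SE 0.27), each with an edgeR adjusted p of 0.248, and at an unadjusted p under 0.05 these 2 genes and Cidec (-1.75, SE 0.75) were lower and 0 were higher, beside 4.73% of all genes lower and 3.95% higher. DESeq2 called Plin4 (adjusted p = 0.0199) and Plin2 (adjusted p = 0.0413), and limma-voom called 0 members. The effects at both times are thus given side by side and were not shown to differ by edgeR.

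**Figure D4:**
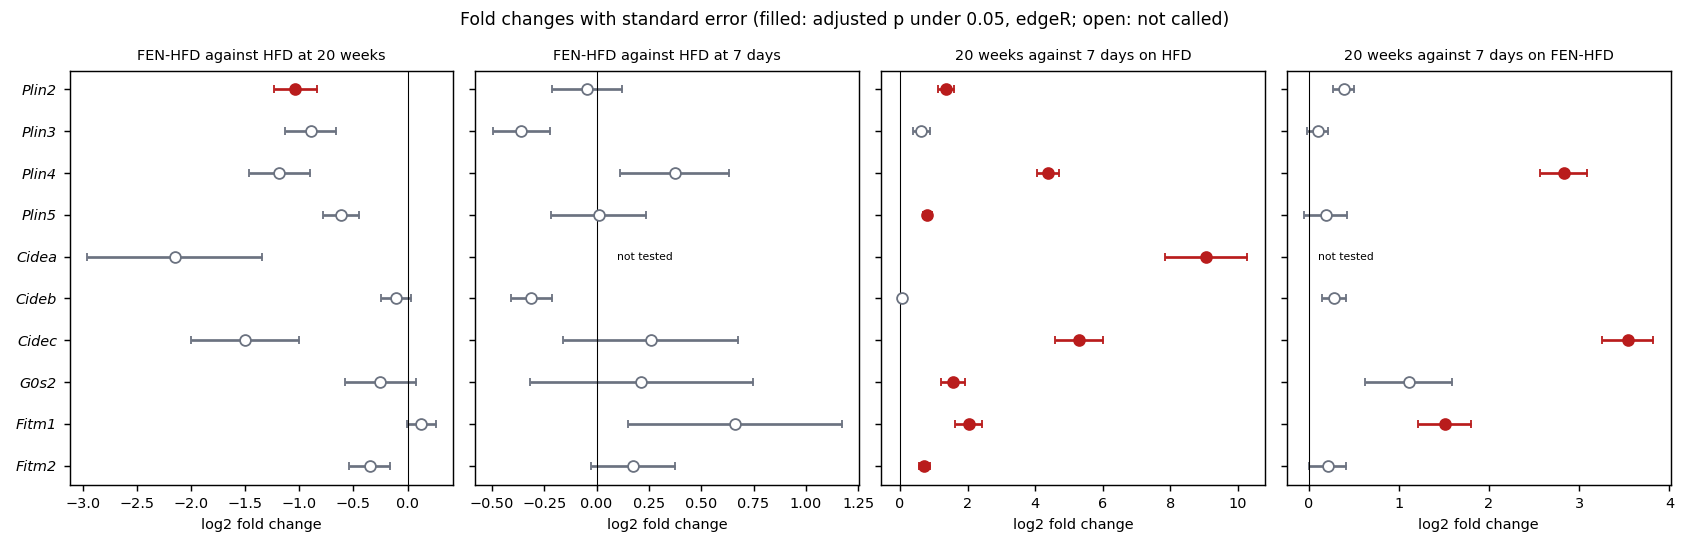
Log2 fold change (x axis, with its own scale in each panel) and standard error of each member (rows) in 4 comparisons, from edgeR. Filled points have an adjusted p under 0.05. Plin2 is the filled point for FEN-HFD against HFD at 20 weeks, none is filled at 7 days, and 8 are filled for 20 weeks against 7 days on HFD and 3 on FEN-HFD.

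The comparison of 20 weeks with 7 days on HFD described how these transcripts stood after long-term feeding. Of 10 members tested, 8 were higher at 20 weeks and none was lower, all 10 fold changes were positive, and the groups did not overlap for those 8. Over all 13255 genes tested, edgeR called 4.78% higher and 2.73% lower, and 8.86% were higher and 8.28% lower with no overlap. At an unadjusted p under 0.05, 9 members were higher and 0 lower, beside 13.3% of all genes higher and 12.2% lower. The median log2 fold change of the members was 1.47, against -0.01 for all genes.

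Plin4 rose to 79.1, 126, 72.2 and 48.1 CPM in the 20-week mice, against 3.04, 3.63, 4.03 and 4.90 CPM in the 7-day mice. Every 20-week mouse was several times above every 7-day mouse, and the log2 fold change was 4.38 (SE 0.32, edgeR adjusted p = 0.000529). Cidec rose to 80.9, 138, 40.4 and 23.7 CPM, against 1.35, 0.986, 3.35 and 1.47 CPM (log2 fold change 5.29, SE 0.71, edgeR adjusted p = 0.00768). Cidea, on the plus strand of chromosome 18, was detected in all 20-week mice, with 700, 868, 94 and 159 counts, against 2, 0, 0 and 1 counts in the 7-day mice. Summed over mice and scaled by library size, the ratio was 635 with a 95% interval of 217 to 3083, which covers counting error only. The fitted log2 fold change of 9.06 (SE 1.23, edgeR adjusted p = 0.00676) ranked 1 of all genes tested, but its size depends on the prior count. Plin4 ranked 19 and Cidec 13 by fold change. B430212C06Rik, which overlaps Cidea on the opposite strand, was also higher (log2 fold change 5.42, edgeR adjusted p = 0.00588).

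Plin2 rose to 785 to 1518 CPM in the 20-week mice, against 336 to 579 CPM in the 7-day mice (log2 fold change 1.37, SE 0.24, edgeR adjusted p = 0.0106). Plin5 rose to 49.5 to 72.7 CPM, against 27.3 to 38.1 CPM (log2 fold change 0.80, SE 0.13, edgeR adjusted p = 0.00876). Plin3 was at 48.1 to 108 CPM at 20 weeks and 38.9 to 59.2 CPM at 7 days and was not called (log2 fold change 0.63, SE 0.25, edgeR adjusted p = 0.164). Thus 3 of the 4 perilipins passed the test, and the member made in most tissues did not. Cideb was at 63.9 to 82.6 CPM at 20 weeks and 64.1 to 77.4 CPM at 7 days, with a log2 fold change of 0.07 (SE 0.11), whereas the other CIDE genes were near 0 at 7 days.

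Fitm1, the Fitm gene of skeletal muscle, was at 55.8, 63.1, 72.7 and 56.7 CPM at 20 weeks, against 22.4, 8.94, 6.32 and 22.8 CPM at 7 days. HFD mouse 45, which held muscle transcripts, was not the highest of its group, and the log2 fold change was 2.03 (SE 0.41, edgeR adjusted p = 0.0250, 0.0465 without mouse 45). G0s2 was at 132, 181, 331 and 173 CPM at 20 weeks, against 85.3, 70.6, 83.1 and 34.4 CPM at 7 days (log2 fold change 1.56, SE 0.36, edgeR adjusted p = 0.0382). Fitm2 was at 50.3, 59.4, 87.1 and 61.9 CPM at 20 weeks, against 37.6, 31.4, 47.0 and 39.4 CPM at 7 days (log2 fold change 0.72, SE 0.17, edgeR adjusted p = 0.0373). These 3 calls were the least firm of the 8. G0s2 passed in 2, Fitm1 in 4 and Fitm2 in 2 of the 8 fits with a mouse left out, with the highest adjusted p at 0.0849, 0.0680 and 0.0991, and 5 members passed without HFD mouse 28, 33 or 143. Without HFD mouse 45, which held muscle and fat transcripts, G0s2 (edgeR adjusted p = 0.0585) and Fitm2 (0.0628) were not called. Plin2, Plin4, Plin5, Cidea and Cidec passed in all 8 fits. With no filter on low counts, G0s2 (edgeR adjusted p = 0.0710) and Fitm1 (0.0512) were not called. Lamb3, within whose bounds G0s2 lies, was also higher (log2 fold change 1.67, edgeR adjusted p = 0.00127), and Nop9 beside Cideb was not called (-0.17).

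Beside the members, 16 of 27 PPAR alpha targets rose with time on HFD and none fell, with a median log2 fold change of 0.73. Over all genes, edgeR called 4.78% higher and 2.73% lower. At an unadjusted p under 0.05 by edgeR, 23 of these 27 targets were higher and 0 lower, beside 13.3% of all genes higher and 12.2% lower. The 6 with the smallest p were Vnn1 (2.28), Crat (2.45), the peroxisomal thiolase Acaa1b (1.40), Pex11a (1.81), Acot3 (4.86) and Cd36 (2.49). Of 8 PPAR gamma targets, 5 rose, namely Mogat1 (4.87), Cd36, Pparg itself (1.95), Fabp4 (1.26) and Cfd (4.16). Of 13 lipolysis genes, the lysosomal lipase Lipa (0.87), Ddhd2 (0.85) and monoglyceride lipase Mgll (0.72) rose, and Pnpla2 (0.08), Abhd5 (-0.04) and Hilpda (0.18) did not pass. Of 27 other droplet genes, Spg20 (0.49) and Pcyt1a (0.40) rose, and Hsd17b13 (0.66) was not called (edgeR adjusted p = 0.0873). Among the 22 factors Pparg rose and Mlxipl fell by 0.56 on the log2 scale. At an unadjusted p under 0.05, 5 PPAR gamma targets were higher and 1 lower, and 7 lipolysis genes were higher and 2 lower. Of the other droplet genes 7 were higher and 1 lower, and of the factors 2 were higher and 4 lower. Median log2 fold changes were 1.61 for the PPAR gamma list, 0.25 for lipolysis, 0.05 for the droplet list and -0.09 for the factors. Cd36 stands in both PPAR lists, Pparg in the PPAR gamma list and the factors, and Cfd and Fabp4 also among the white adipocyte markers. Marker genes differed too, and their part was not tested. Of 8 hepatocyte markers, edgeR called Cps1 and Apoa1 lower at 20 weeks. Means were also lower for Serpina1b and Tat but higher for Alb, Ttr, Apob and Fabp1. Hepatocyte sums overlapped (89806 to 101059 CPM at 20 weeks, 82197 to 101933 CPM at 7 days). Of 7 Kupffer cell markers, Clec4f and Vsig4 were lower, with sums of 320.2 to 391 CPM at 20 weeks and 409 to 922 CPM at 7 days. Of 6 markers of lipid-associated macrophages, Gpnmb was higher, and the sums overlapped (70.5 to 232 CPM against 61.4 to 90.7 CPM). White adipocyte markers summed to 44.3 to 69.96 CPM at 20 weeks and 24.6 to 34.3 CPM at 7 days without overlap.

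On FEN-HFD, 3 of the 9 members tested were higher at 20 weeks than at 7 days and none was lower. Over 12949 genes, edgeR called 0.849% higher and 0.332% lower, and 3.85% were higher and 2.72% lower with no overlap. Scaled over the 8 libraries of this comparison, 4 of the 9 members were higher with no overlap. The median log2 fold change was 0.39 for the members and 0.01 for all genes. Cidec was at 19.2, 28.7, 30.1 and 21.6 CPM at 20 weeks, against 1.23, 1.83, 2.11 and 3.48 CPM at 7 days (log2 fold change 3.54, SE 0.28, edgeR adjusted p = 0.000226). Plin4 was at 38.0, 28.7, 31.1 and 46.1 CPM at 20 weeks, against 3.34, 4.31, 4.59 and 7.97 CPM at 7 days (log2 fold change 2.83, SE 0.26, edgeR adjusted p = 0.000595). Both genes passed in all 8 fits with a mouse left out. Fitm1 was at 74.2, 75.8, 69.7 and 51.4 CPM at 20 weeks, against 11.8, 19.5, 30.3 and 33.7 CPM at 7 days. The groups did not overlap, and its log2 fold change of 1.51 (SE 0.29, edgeR adjusted p = 0.0481) passed in 2 of the 8 such fits, with adjusted p up to 0.147. Fitm1 also missed the threshold with no filter on low counts (adjusted p = 0.0981, edgeR), with at least 10 counts asked of every library (0.0547), in the fit of all 16 libraries (0.0937) and for a change of over 1.5-fold (0.294).

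Plin2 was at 494, 581, 585 and 437 CPM at 20 weeks, against 365, 384, 438 and 408 CPM at 7 days. In these CPM, scaled over all 16 libraries, FEN-HFD mouse 29 of the 20-week group was level with mouse 65 of the 7-day group. Scaled over the 8 libraries of this comparison, the groups did not overlap. Plin2 was not called (log2 fold change 0.39, SE 0.12, edgeR adjusted p = 0.230), although it passed without mouse 29 (0.46, adjusted p = 0.0316). Cidea held 165, 120, 32 and 8 counts at 20 weeks, against 5, 0, 2 and 1 counts at 7 days, and was too low in too many mice for the main test. Its ratio over summed and scaled counts was 59.0 (95% interval 29.6 to 138, counting error only), and with mouse 29 left out it was tested and passed (log2 fold change 5.87, edgeR adjusted p = 0.00116). Plin3 (log2 fold change 0.10), Plin5 (0.19), Fitm2 (0.21), Cideb (0.28) and G0s2 (1.11) were not called by edgeR. DESeq2 called Plin2 (adjusted p = 0.0492), and limma-voom called Plin2 (0.0244) and Cideb (log2 fold change 0.43, adjusted p = 0.0284). G0s2 spread from 30.4 to 159 CPM at 7 days, and mouse 66 at the top of that range overlapped the 20-week mice. Among the listed genes, 5 of 27 PPAR alpha targets rose (Cd36, Crat, Vnn1, Acot3 and Acot2), as did 4 of 8 PPAR gamma targets (Cd36, Mogat1, Cfd and Fabp4) and the lipase gene Pnpla3 (log2 fold change 0.98, edgeR adjusted p = 0.0489). None of the 27 other droplet genes (1 higher and 1 lower at an unadjusted p under 0.05) or 22 factors (2 higher, 0 lower) passed edgeR's test, beside 6.03% of all genes higher and 3.63% lower at that unadjusted p, and Hsd17b13 had a log2 fold change of -0.14. Cell markers differed as well, and their part was not tested. Marco of Kupffer cells (log2 fold change 2.58), Cfd (5.08) and Fabp4 were higher and Cps1 of hepatocytes (-0.74) was lower at 20 weeks by edgeR. The white adipocyte markers summed to between 96.3 and 202 CPM at 20 weeks and between 30.2 and 42.6 CPM at 7 days without overlap, while Adipoq and Plin1 were at 0 in all FEN-HFD mice at 20 weeks. Kupffer markers (411 to 963 CPM against 445 to 584 CPM) and hepatocyte markers (68023 to 77090 CPM against 74924 to 85479 CPM) overlapped. The time comparisons on FEN-HFD and HFD share no library, but each shares its libraries with the diet comparisons.

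Mice within a group were not ordered alike by all members. Among HFD mice at 20 weeks, mouse 28 was the highest for 6 of the 10 members (Plin2, Plin3, Plin4, Cidea, Cideb and Cidec) and mouse 33 for the other 4 (Plin5, G0s2, Fitm1 and Fitm2). Mouse 45, with its muscle and fat transcripts, was the lowest for 5 members, among them the adipocyte genes Plin4 and Cidec. Among FEN-HFD mice at 7 days, mouse 66 was the highest for 6 of 9 members and mouse 61 the lowest for 6. The coefficient of variation among HFD mice at 20 weeks was 81.0% for Cidea, 72.1% for Cidec and 40.2% for Plin4, and 12.9% for Cideb and 12.6% for Fitm1.

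Genes with the most similar pattern were sought over 9469 genes and all 16 libraries, by the root mean square difference between standardised log2 CPM, which is a description without a test. Plin4 and Cidec, on chromosomes 17 and 6, were each other's closest gene (0.207). Next to Plin4 were Cyp2a22 (0.220) and Lgals1 (0.228), and next to Cidec were Agpat9 (0.269) and Cyp2a22 (0.279). Plin2 was closest to 2010003K11Rik (0.287), Apoa4 (0.300) and Osbpl3 (0.306), and Cidea to Hspb1 (0.258), Wdr67 (0.282) and Lgals1 (0.311). Fitm2 was closest to Plin5 (0.365), then Akap1 (0.391) and Pla2g6 (0.396), and Plin5 was closest to Akap1 (0.319), Coasy (0.323) and Pex5 (0.352). Fitm1 was closest to Fbxw9 (0.267), Uck1 (0.274) and Clstn3 (0.328). G0s2 had the weakest likeness, with Elmod3 (0.519), Fbf1 (0.561) and Cdc42bpg (0.607). The points share the 4 groups and their library scaling.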

How the data were processed

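Liver RNA was depleted of ribosomal RNA and sequenced as paired ends. Adapters and poor reads were removed (FASTQ Toolkit v2.0.0), STAR 2.0 aligned the rest to mm10, and the submitters' processing notes also name DESeq2 1.6. The counts deposited by the authors are raw read counts per gene symbol without normalization. The counting program, annotation and strand setting are not given in the sources used here. The labels name a stranded library kit and the paper another TruSeq kit, which was not settled.

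Tests used edgeR 4.0.16 under R 4.3.3 (filterByExpr with a count minimum of 10, TMM, glmQLFit with robust=TRUE, glmQLFTest), with Benjamini-Hochberg adjustment over all genes tested and a threshold of 0.05. Each comparison held its own 8 libraries, and the difference of effects held all 16. Totals of 19218230 to 32546829 counts per library bear on the precision of low genes such as Cidea. In FEN-HFD mouse 29, Rn45s took 53.1% and Lars2 4.36% of 19629172 counts. Fewer counts were thus left for other genes in that mouse, where Cidea had 8. Alternatives used DESeq2 1.42.0, limma-voom (limma 3.58.1), RLE factors, other filters, glmTreat, removal of Rn45s and Lars2, a fit of all libraries, and each mouse left out. The omission of mice 29 and 45 together was chosen after seeing the data.

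The members, gene lists and motifs were chosen with earlier results of these data known. All 10 members were named, with Plin1, Hilpda, Pnpla2, Abhd5 and Hsd17b13, the list genes that passed (at most 6 per list and comparison, by smallest p), and the 3 genes most like each called member. Genes that overlap a member were added because of their position. Exon lengths came from GENCODE M21. All 149 listed symbols were found, 2 by a synonym. Promoter windows came from RefSeq and were searched for 9 members, and Cidea was left out of this search. The scripts were tested on simulated data.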

Additional observations from a re-analysis of the deposited data

Results flagged for a closer look

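Plin3 in FEN-HFD mouse 62 at 7 days was at 39.7 CPM, against 34.0 to 34.6 CPM in the other 3 mice of its group. It was the highest of the 4, and its gap to the next mouse was 0.887 of the group's range. In all, 40 groups of 4 mice were examined and 1 passed Dixon's critical value, and chance flags about 1 in 20 groups.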

How the results depend on the processing

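No paired analysis was possible because no mouse number was shared between groups. For FEN-HFD against HFD at 20 weeks, 1 member was lower in edgeR, 4 in DESeq2, 4 in limma-voom, 3 in a fit of all 16 libraries, 3 without FEN-HFD mouse 29 and HFD mouse 45 (chosen after seeing the data), 0 for a change of over 1.5-fold, and 0 to 3 with a mouse left out: 0 without FEN-HFD mouse 21, 22 or 24 or HFD mouse 25 or 33, and 3 without HFD mouse 45. For 20 weeks against 7 days on HFD, 8 members were higher, 3 for a change of over 1.5-fold, 6 with no filter, 7 with at least 10 counts in every library (Cidea then being untested), and 5 to 7 with a mouse left out. On FEN-HFD, 3 were higher, 5 in limma-voom, 4 in DESeq2 (Plin2 added) and without Rn45s and Lars2 (Cidea added), 2 for a change of over 1.5-fold or with at least 10 counts in every library, and 2 to 4 with a mouse left out. With no filter or in a fit of all 16 libraries 3 passed, with Cidea (adjusted p = 0.0139 and 0.0187, edgeR) in place of Fitm1. For the difference of the fenretinide effect, 0 were lower in edgeR and 2 in DESeq2. The cause of these differences was not tested.

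Some log2 fold changes that were never called changed sign. In limma-voom, Cideb (0.00313) and G0s2 (0.10) at 20 weeks and Plin2 at 7 days (0.0528) turned positive. With a mouse left out, FEN-HFD against HFD ran from -0.46 to 0.0887 for G0s2 at 20 weeks, and at 7 days from -0.14 to 0.17 for Plin2, -0.18 to 0.20 for Plin5, -0.0601 to 0.77 for Cidec and -0.38 to 0.48 for G0s2. Plin5 over time on FEN-HFD ran from -0.000354 to 0.37, and the G0s2 difference of effects from -0.73 to 0.13. In all 80 checks of a group level, with RLE factors or without Rn45s and Lars2, the level moved by less than 1 SD. Depth limited Cidea, with 0 to 5 counts per 7-day library.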
